A study of Equus caballus with 6 samples.

Results

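Long piRNAs that carry uridine at position 1 and adenine at position 10 were followed in the testis of the Mongolian horse. They were taken as every listed sequence of 29 to 32 nt with T at position 1 and A at position 10, where T in the sequence stands for U in the RNA. Of 4936717 distinct sequences in the table, 493720 met this rule, and they held 2803200 of 17914237 reads. By length, 208591 of them were of 29 nt, 143425 of 30 nt, 116932 of 31 nt and 24772 of 32 nt. The study sequenced small RNAs of 3 immature and 3 mature testis libraries, made from total RNA of the whole organ of horses of 1 breed, to follow piRNAs through testis development and spermatogenesis. No treatment, genotype or age of the animals is given in the labels, which number the libraries as replicates without saying that each came from its own animal. The p-values therefore measure only the spread between these libraries, which may be technical. In whole testis, fewer cells of a type and less RNA per cell cannot be told apart, and the table holds no messenger RNA with which the labelled tissue could be checked.

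piRNAs guide the PIWI proteins of germ cells. They lead them to transposon transcripts and, in the meiotic and later cells of the mammalian testis, come in large numbers from long precursor transcripts. In the mouse testis, PIWI proteins that appear at different stages hold piRNAs of different lengths, and the longer ones belong to the protein of meiotic and later cells. Uridine at position 1 is the usual first base of a primary piRNA. Adenine at position 10 is the mark of a piRNA made by the ping-pong cycle, in which a PIWI protein cuts a target opposite position 10 of its guide, so that the new 5′ end overlaps the guide by 10 nt. A sequence with both marks has a symmetry: the reverse complement of its first 10 nt again begins with U and has A at position 10. Binding to a PIWI protein was not measured, so these sequences are piRNAs by the authors' call.

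The sequences below are shown because the results on single sequences turn on them, with positions 1 and 10 in capitals. The first 10 had the highest mean level over all 6 libraries.

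uniq_274482: TggataaatAaattgtggtatatttctgca
uniq_358364: TggataaatAaattgtggtatatttctgc
uniq_1435444: TatgactaaAactgactggagggctggtt
uniq_3943789: TaagaccagActtcaaacccactcaagagt
uniq_2919082: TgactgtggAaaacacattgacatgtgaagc
uniq_5218759: TgtgaaatgAatgaatgaatgaatcgatc
uniq_4982881: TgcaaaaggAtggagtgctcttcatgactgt
uniq_2582624: TtccttttcAgttggtctgtgctctgatt
uniq_4183634: TaaatacagActgtagactcccagcgctgt
uniq_3572800: TaagattctAaattgaactttgatgacggg

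The next 5 had the highest immature level among those called higher in immature testis.

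uniq_2330242: TgaagtaggActtctgctctgggtgtgct
uniq_3141251: TacttggatAactgtggtaattctagagc
uniq_318021: TacttgaacAtaggctgctaagactgatg
uniq_2339653: TgaagtagaActtctgctctgggtgtgct
uniq_2330739: TaagaaacaActcgctctgcacagtgctc

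Long piRNAs with both marks made up a larger part of the piRNA pool in mature testis. Their share of all reads in the table was 5.999%, 6.65% and 6.82% in the immature libraries and 19.2%, 19.8% and 19.1% in the mature ones. The groups did not overlap, with 6.49% ± 0.434 (SD, n = 3) against 19.4% ± 0.365, a ratio of 2.99 (exact two-sided permutation p = 0.1). That p is the smallest that 3 against 3 libraries can give, and over the 13 tests of this kind made here it became 0.118 after Benjamini-Hochberg adjustment. The libraries held 1382083 to 2347351 reads in immature and 4032042 to 4550970 reads in mature testis, all of them called piRNAs, so the totals are not sequencing depth. The 95% Wilson intervals of this share reached at most 0.0409 points on each side, which covers counting error only, since PCR copies are not told apart.

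Held against all U1 sequences of 29 to 32 nt, the members took close to the same part in both groups, but not at each single length. Among reads of 29 to 32 nt that begin with U, A stood at position 10 in 27.9%, 29.5% and 30.7% in the immature libraries and in 29.5%, 30.3% and 29.7% in the mature ones. The mature libraries lay within the range of the immature ones, with means of 29.4% ± 1.40 and 29.8% ± 0.429 (SD, n = 3, exact permutation p = 0.7). Long U1 reads without A10 stood at 15.6% ± 0.286 of the pool in immature and 45.6% ± 0.350 in mature testis. The sign of the small difference was not stable. It was -0.251 percentage points without immature replicate 1. Over sequences with at least 2 reads it was 2.04 points, from 27.9% ± 1.97 in immature to 29.97% ± 0.467 in mature testis (exact permutation p = 0.2). It was -3.21 points when every sequence had the same weight, where A10 was found in 31.8% ± 0.289 of immature and 28.6% ± 0.170 of mature sequences. With each library's 100 most abundant sequences left out it was -2.90 points, from 31.7% ± 0.159 to 28.8% ± 0.199 (exact permutation p = 0.1 for each of the last 2 alternatives).

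Against the other 2 classes that share a mark with them, the members stood higher in mature testis. Long A10 sequences without U1, the classical form of a ping-pong product of a U1 guide, accounted for 1.68% ± 0.105 of the reads in immature testis and 2.64% ± 0.115 in mature testis (n = 3, SD). U1 A10 sequences of 25 to 28 nt accounted for 15.6% ± 0.582 and 6.59% ± 0.197. The log2 ratio of member reads to long A10 reads without U1 was 1.95 ± 0.13 in immature and 2.88 ± 0.04 in mature testis. The log2 ratio to the shorter U1 A10 reads was -1.27 ± 0.08 and 1.56 ± 0.05. With every sequence given the same weight, the first of these ratios was 1.91 ± 0.11 and 2.16 ± 0.04, a difference of 0.25 in place of 0.93. Each mature library lay above each immature one in both ratios (exact permutation p = 0.1, and 0.15 after adjustment over the 3 classes compared). To the long U1 class without A10 the log2 ratio was -1.27 ± 0.10 and -1.23 ± 0.03 (exact permutation p = 0.7 before and after adjustment).

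Adenine was more frequent at position 10 than at the positions on either side, but position 10 was not where it was most frequent. In long U1 reads of mature testis, A stood at position 10 in 29.8%, at position 9 in 22.1% ± 0.211 and at position 11 in 24.1% ± 0.0727 (SD, n = 3). At position 5 it reached 43.6% ± 0.416 and at position 3 32.7% ± 0.222. In immature testis the values were 29.4% at position 10, 21.7% ± 1.09 at position 9, 22.5% ± 1.46 at position 11 and 35.8% ± 2.86 at position 5. Position 3 stood at 29.5% ± 1.11 there. Position 14 stood at 31.8% ± 2.57 in immature and 24.9% ± 0.535 in mature testis. Against the mean over positions 2 to 9 and 11 to 20 of the same reads, the excess at position 10 was 4.54, 4.81 and 5.23 percentage points in the immature libraries. In the mature libraries it was 3.21, 3.995 and 3.28 points. The excess was lower in each mature than in each immature library (4.86 ± 0.351 against 3.49 ± 0.434 points, exact permutation p = 0.1). The subtracted mean was 24.5% ± 1.06 in immature and 26.3% ± 0.0998 in mature testis, while A at position 10 itself was not lower by reads. Over sequences with at least 2 reads the excess was 4.12 ± 0.527 and 3.56 ± 0.466 points, and the groups overlapped (exact permutation p = 0.2). Not weighted by reads, it was 6.11 ± 0.249 and 2.91 ± 0.146 points, with A at position 10 in 31.8% and 28.6% of sequences. In U1 reads of 25 to 28 nt the excess was 3.89 ± 0.224 points in the immature libraries and 0.686 ± 0.453 points in the mature ones. Long reads without U1 went the other way, at -6.70 ± 2.34 and 15.8 ± 4.17 points. Not weighted by reads, those without U1 stood at 20.3 ± 1.25 and 12.5 ± 0.505 points.

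Bases near position 10, and some farther from it, also differed between the members and long U1 sequences without A10. U at position 9 was found in 20.9% ± 0.501 of member reads and 36.3% ± 0.248 of the other long U1 reads in mature testis, and in 20.2% ± 1.09 and 31.9% ± 1.65 in immature testis (SD, n = 3). U at position 11 stood at 22.4% ± 0.602 against 36.5% ± 0.456 in mature and at 25.3% ± 1.01 against 41.8% ± 3.60 in immature testis. C at position 8 stood at 13.4% ± 0.349 against 22.3% ± 0.312 and at 13.7% ± 0.493 against 18.6% ± 0.791. All 3 bases were rarer in the members in 6 of 6 libraries, and the same held with each distinct sequence counted once. G at position 9 was more frequent in member reads of the mature libraries (35.7% ± 0.190 against 24.8% ± 0.757) but in only 1 of 3 immature libraries (31.4% ± 0.235 against 31.05% ± 3.59). Not weighted by reads, it was more frequent in 6 of 6 libraries, at 33.1% against 22.9% in mature and 30.8% against 22.05% in immature testis. Farther off, U at position 6 stood at 33.5% ± 0.316 against 29.3% ± 0.290 in mature and 36.2% ± 0.809 against 26.3% ± 1.48 in immature testis. G at position 6 stood at 18.4% ± 0.254 against 25.4% ± 0.635 and at 19.7% ± 0.656 against 29.4% ± 3.12. Both held in 6 of 6 libraries, also with each distinct sequence counted once.

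Within the limits of the rule, the members were longer in mature testis. Of member reads, 53.4% ± 4.13 in immature and 35.1% ± 3.09 in mature testis were of 29 nt (SD, n = 3). Those of 30 nt made up 27.7% ± 2.49 and 37.1% ± 0.241, those of 31 nt 15.97% ± 1.46 and 23.8% ± 2.47, and those of 32 nt 2.96% ± 0.184 and 3.95% ± 0.843. The mean length was 29.62, 29.73 and 29.70 nt in the immature libraries and 29.91, 30.05 and 29.94 nt in the mature ones (exact permutation p = 0.1). The lower limit of the rule falls where the order of the groups turns. U1 A10 sequences of 28 nt, just outside, accounted for 2.90% ± 0.219 of the immature pool and 1.92% ± 0.0486 of the mature pool. Those of 29 nt, just inside, made up 3.46% ± 0.126 and 6.80% ± 0.483.

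The length difference was also present at single 5′ ends. For each 25 nt start with U1 and A10, the share of its reads that were of 29 to 32 nt was taken, over the 892 starts with at least 5 reads in each of the 6 libraries. The mean share was 46.2%, 46.7% and 46.6% in the immature libraries and 66.6%, 65.5% and 65.01% in the mature ones (46.5% ± 0.261 against 65.7% ± 0.833, exact permutation p = 0.1). With starts weighted by their reads it was 40.4% ± 6.87 against 82.9% ± 0.430, a difference of 42.5 points in place of 19.2. At 462 starts every mature library lay above every immature library, which is 51.8% of them. Over all 3469 starts of any base that met the same minimum the percentage was 44.4. The opposite order was found at 16 of the 892 starts (1.79%), against 2.1% of all starts. U1 starts without A10 stood at 45.7% ± 0.428 in immature and 62.6% ± 0.934 in mature testis. The gap between the 2 kinds of U1 start was 0.823 ± 0.366 points in immature and 3.16 ± 0.139 points in mature testis (exact permutation p = 0.1). These shared starts held 13.99% to 16.4% of U1 A10 reads in the immature libraries and 35.9% to 37.4% in the mature ones. At the remaining starts, 27.2% to 27.7% of immature and 68.97% to 70.5% of mature reads were long.

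The 3 starts with the most member reads are described next. Since member reads are long by the rule, a high share of long reads at these starts follows from how they were chosen. The start with the most member reads was that of uniq_274482 and uniq_358364, which differ by 1 base of length. Of its reads, 98.1%, 97.3% and 95.9% were long in the immature libraries and 98.4%, 97.9% and 98.1% in the mature ones. Of its reads 72.8% ± 4.32 were of 30 nt in the immature libraries and 74.2% ± 1.37 in the mature ones (SD, n = 3). The start of uniq_1435444, next in abundance, had 91.5% to 92.3% long reads in immature and 94.2% to 95.4% in mature testis. The start of uniq_3943789 had 94.0% to 98.1% and 95.9% to 96.98%. At the first and the third of these starts the ranges of the groups overlapped.

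The number of distinct members was compared at equal table totals, at which member reads still differed as their shares do. After each library had been thinned to 1382083 reads, 57554, 58635 and 65973 members were seen in the immature libraries and 75673, 76057 and 68538 in the mature ones (60721 ± 4581 against 73423 ± 4235, SD, n = 3, exact permutation p = 0.1). Most members were rare. Of the 493720, 352779 (71.5%) had 1 read in all libraries together, and 2411 were seen in all 6. Both groups held 38841 members, which is 20.6% of those seen in immature and 11.3% of those seen in mature testis. They carried 44.4% of the immature and 72.8% of the mature member reads. Members with 1 read in the table held 40.4% ± 5.50 of immature and 8.96% ± 0.920 of mature member reads. The 100 leading members of each library held 7.83%, 10.9% and 7.21% of member reads in the immature libraries and 19.9%, 20.2% and 20.9% in the mature ones (exact permutation p = 0.1).

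Only abundant members could be tested one by one. edgeR's quasi-likelihood test was run on the whole table, and its filter on low counts left 31788 sequences, 5362 of them members, which is 1.09% of the members. The filter keeps sequences that are high in 1 group, so the counts describe these 5362 and not the members as a whole. With TMM factors, which scale the libraries on the bulk of the tested sequences, 1096 members (20.4%) were called at a Benjamini-Hochberg adjusted p under 0.05, against 30.4% of all tested sequences. Of them 663 (12.4%) were higher in mature testis, against 8.41% of all, and 433 (8.08%) were higher in immature testis, against 21.9% of all. On library totals, 5261 members (98.1%) were called, against 98.1% of all. Of these 4911 (91.6%) were higher in mature testis, against 77.7% of all, and 350 (6.53%) were higher in immature testis, against 20.3% of all. Of the calls made with TMM factors, all 663 mature-high and 350 of the 433 immature-high members kept theirs on that scale. The median log2 fold change of all tested sequences was 0.62 with TMM factors and 3.15 with library totals, a shift of 2.52, and that of the tested members was 0.98 and 3.50. The count of members higher in mature testis with TMM factors was 1408 without immature replicate 2 and 420 without immature replicate 3, with 8839 and 8875 members tested. These were 15.9% and 4.73% of the members tested, against 11.7% and 3.35% of all tested sequences.

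The 10 leading members were chosen by their mean over all 6 libraries, which favours sequences high in mature testis, so their direction is a description of the choice. Together they held 2.42% of immature and 9.09% of mature member reads. uniq_274482, of 30 nt, stood at 199, 1806 and 769 CPM (counts scaled to the library's total in the table) in the immature libraries. It stood at 7699, 8538 and 7235 CPM in the mature libraries. All mature values were above all immature ones, and immature replicate 1 was the lowest and immature replicate 2 the highest of its group. The ratio of the means was 8.46, and 16.2 without immature replicate 2. Its log2 fold change was 3.08 ± 0.82 (SE) with library totals (edgeR adjusted p = 0.000202) and 0.56 ± 0.64 with TMM factors (adjusted p = 0.527). Without immature replicate 2 the TMM value was 1.87 and was called (edgeR adjusted p = 0.0347).

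uniq_1435444 stood at 38.3, 121 and 111 CPM in the immature and at 1373, 1522 and 1890 CPM in the mature libraries, with no overlap. Its log2 fold change was 1.58 ± 0.61 with TMM factors (edgeR adjusted p = 0.0357), and its adjusted p ran from 2.25e-07 to 0.206 over the alternatives. uniq_2919082 stood at 60.05, 70.7 and 48.6 CPM in the immature and 1083, 1053 and 1172 CPM in the mature libraries. uniq_5218759, which contains a run of the 4 nt unit GAAT, had the largest ratio of the 10, 26.1, with 54.3, 27.3 and 38.3 CPM in the immature libraries and 885, 796 and 1450 CPM in the mature libraries. Its log2 fold change was 2.06 ± 0.62 with TMM factors (edgeR adjusted p = 0.00438).

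Over the 10 leading members the ratio of mature to immature means ran from 8.13 to 26.1. Scaled by library totals, 10 of 10 were called mature-high, against 77.7% of all tested sequences (largest edgeR adjusted p = 0.000202). Scaled by TMM factors, 5 were, namely uniq_1435444, uniq_2919082, uniq_5218759, uniq_4183634 and uniq_3572800, against 8.41% of all tested sequences. Each of these 5 calls was lost under some alternative, with largest edgeR adjusted p-values of 0.206, 0.232, 0.105, 0.0754 and 0.178 in that order. Without immature replicate 3 the adjusted p of uniq_2919082 was 0.0741 and that of uniq_3572800 was 0.142, and without mature replicate 3 that of uniq_1435444 was 0.0676 and that of uniq_3572800 was 0.0525. With the replicate number as a block that of uniq_2919082 was 0.0579. Immature replicate 2 had the highest immature level in 9 of the 10. Without it the ratio was 12.7 in place of 8.13 for uniq_358364, 28.4 in place of 13.99 for uniq_3943789, 20.9 in place of 12.5 for uniq_2582624 and 29.7 in place of 17.9 for uniq_3572800.

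The members called higher in immature testis are described next. uniq_2330242 stood at 260, 192 and 221 CPM in the immature libraries and at 0.966, 2.48 and 0.879 CPM in the mature ones, where it had 4, 10 and 4 reads. The immature mean was 156 times the mature mean, and 243 times without mature replicate 2. Its log2 fold change was -9.85 ± 0.89 with TMM factors (edgeR adjusted p = 2.62e-25). On library totals it was -7.25 ± 0.88, with an edgeR adjusted p of 1.19e-14. uniq_2339653 is of the same length and differs from it by G9A, counted from the 5′ end with the base of uniq_2330242 first. It stood at 143, 134 and 136 CPM in the immature libraries and at 2.42, 2.48 and 1.099 CPM in the mature libraries, an immature level that varied little between libraries.

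Around uniq_2330242 there was a family of near copies, chosen after their values were seen. With it, 249 members of its length differed from it at no more than 2 positions. Of these, 114 had 1 read and 27 had at least 10 reads. Whether the rare ones are sequencing errors of the abundant ones was not tested. The summed mean level of the family was 726 CPM in the immature libraries and 6.90 CPM in the mature ones. Of the family 12 were tested, and 12 were called higher in immature testis with TMM factors, against 21.9% of all tested sequences. The family was built around a sequence chosen as immature-high, so nothing is read from this count. After these 2 sequences the most abundant were uniq_2339652, which carries G9A and T29C, at 57.4 ± 7.57 and 0.480 ± 0.253 CPM, and uniq_2333577, which carries T29A, at 34.2 ± 7.09 and 0.636 ± 0.171 CPM (SD, n = 3).

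The other 3 immature-high members named by the rule were lower in fold. uniq_318021 stood at 218, 111 and 88.2 CPM in the immature libraries against 8.70, 5.95 and 6.59 CPM, and uniq_2330739 at 114, 159 and 69.1 against 4.35, 5.21 and 2.64 CPM. uniq_3141251 stood at 132, 179 and 195 against 30.2, 20.6 and 27.5 CPM. Its letters are known from the RNA of the small ribosomal subunit, a match that was not looked up here. On library totals these 3 were called too, with edgeR adjusted p-values of at most 0.000129.

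Pairing over 10 nt was measured from the sequences alone. For each 10 nt start of a member, its share of member reads was multiplied by the share of all U1 A10 reads that begin with its reverse complement, and the products were summed. The sum was divided by the mean of 2 control sums, in which positions 2 to 9 were only reversed or only complemented. This pairing ratio was 3.24, 3.12 and 3.08 in the immature libraries and 2.49, 2.71 and 2.34 in the mature ones. It was above 1 in 6 of 6 libraries and lower in each mature than in each immature library (3.14 ± 0.0866 against 2.51 ± 0.187, SD, n = 3, exact permutation p = 0.1). Over sequences with at least 2 reads it was 4.78 ± 0.803 and 2.63 ± 0.196. When sequences were not weighted by reads, an alternative chosen after the data were seen, it was 2.27 ± 0.220 and 2.16 ± 0.123 (exact permutation p = 0.6). For U1 A10 sequences of 25 to 28 nt the ratio was 3.24 ± 0.223 and 2.46 ± 0.192. A complementary start was present for 89.2% ± 2.51 of immature and 86.6% ± 0.702 of mature member reads, and 73.06% ± 3.72 and 71.5% ± 0.909 had one with those inner positions only reversed. Of the paired reads, weighted by these products, 31.7% ± 3.68 in immature and 70.6% ± 1.21 in mature testis were of 29 to 32 nt. That was near their part of all U1 A10 reads, 29.3% ± 1.20 and 74.6% ± 0.621.

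Of the 8 complementary starts with the largest products, 3 are shown, chosen after their values were seen, each with the most abundant member of the start and the most abundant U1 A10 sequence of the complementary start. The capitals mark the 10 nt that are reverse complements of each other.

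uniq_4695127: TCTGCAATCAgctggggacggaactccagt
uniq_5147214: TGATTGCAGAgcaatttacactgatg
uniq_2096329: TGGACTGGGAgtcagaagacctgggctcca
uniq_2089494: TCCCAGTCCAgtgctctttcctctgtatc
uniq_2339653: TGAAGTAGAActtctgctctgggtgtgct
uniq_2332557: TTCTACTTCAgcgagatcaggcctggga

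The first of them had the largest product, 3.14% of the sum over all starts. Its member uniq_4695127 stood at 10.8 ± 13.03 CPM in the immature libraries and 261 ± 15.1 CPM in the mature ones, and its 26 nt partner uniq_5147214 at 5.01 ± 4.39 and 54.5 ± 11.3 CPM (SD, n = 3). In the next pair both sequences were members: uniq_2096329 stood at 6.76 ± 4.65 and 68.6 ± 7.62 CPM, and uniq_2089494 at 22.1 ± 16.6 and 287 ± 14.3 CPM. The last pair was high in immature testis, where uniq_2339653 stood at 138 ± 4.78 against 2.00 ± 0.780 CPM and its 28 nt partner uniq_2332557 at 18.7 ± 3.20 against 0.482 ± 0.262 CPM. In these 3 pairs both sequences were higher in the same group, but that was not so in all of the 8. In the pair with the next largest product after the first, uniq_201103 stood at 2.25 ± 1.60 CPM in the immature libraries and 7.21 ± 2.59 CPM in the mature ones, and its partner uniq_75070 at 13.8 ± 14.5 and 7.53 ± 1.58 CPM. In another, uniq_3302513 stood at 1.27 ± 0.498 and 23.7 ± 6.71 CPM, and its partner uniq_11876 at 195 ± 108 and 23.3 ± 9.43 CPM. Without genome positions it is not known whether the sequences of a pair come from opposite strands of 1 locus.

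Base content and the last base were also compared. Over the positions not fixed by the rule, G and C made up 48.2% ± 0.685 of immature and 46.6% ± 0.0400 of mature member reads (SD, n = 3, exact permutation p = 0.1). Not weighted by reads, the values were 48.5% ± 0.296 and 48.4% ± 0.0901 (exact permutation p = 0.6). In long U1 reads without A10 the G and C content was 49.05% ± 0.463 and 47.6% ± 0.0883. The last base was U in 35.4% ± 2.65 of immature and 35.9% ± 0.783 of mature member reads and C in 28.9% ± 3.01 and 28.5% ± 0.387. G was the rarest last base, at 14.3% ± 0.724 and 13.7% ± 0.161, and in long U1 reads without A10 it stood at 19.6% ± 2.81 and 15.4% ± 0.694.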

How the data were processed

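Small RNAs were sequenced in 6 libraries, each from 3 µg of total RNA and a gel cut at 140 to 160 bp, per the labels' protocols. In the deposited table each distinct sequence of 25 to 32 nt has 1 raw read count per library, as the file headers and whole-number values show. The submitters' processing notes name Bowtie. Not given in the sources used here are its version, the genome build and how piRNAs were called.

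Members were chosen by length and by the bases at positions 1 and 10, not by counts. The members, lists and tests were chosen with earlier results of these data known. Shares and CPM are relative to each library's total in the table. For shares and ratios the test was an exact permutation test over libraries, two-sided, with Python 3.11.15 and numpy 2.4.6. Single sequences were tested over the whole table with edgeR 4.0.16 in R 4.3.3 (filterByExpr defaults, TMM factors, quasi-likelihood test, Benjamini-Hochberg adjustment, threshold 0.05). Standard errors are the absolute log2 fold change divided by the square root of F. Named sequences were the 10 members with the highest mean CPM over the libraries, the 5 most abundant called in each direction, and the 3 leading 25 nt starts. The 5 called higher in mature testis are among the first 10. Alternatives were library totals, upper quartile factors, other filters, DESeq2 1.42.0, thinning, a replicate block, left-out libraries, other weights of sequences and other length limits. The edgeR step and the pairing ratio were tested on simulated data. For edgeR this checked direction and false calls only: an earlier criterion on the share of changes recovered was not met and was replaced, so it says nothing of power. No pair of libraries of a group agreed within counting noise over the members (chi-square of 3.87 to 7.35 per sequence). A count of 0 allows up to 3 reads. No genome was used, so no positions or annotations are given.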

Additional observations from a re-analysis of the deposited data

How the results depend on the processing

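The sign changed for 2 results. The A10 share of long U1 reads (mature minus immature) was -3.21 points with each distinct sequence counted once, -2.90 when each library's 100 most abundant sequences were left out and -0.0869 for 28 to 32 nt, and ran from -0.251 to 1.15 when a library was left out. It was 2.04 points over sequences with at least 2 reads and 0.456 for 29 to 31 nt. The log2 ratio to long U1 reads without A10 followed it. That ratio differed by -0.22 with each distinct sequence counted once and by -0.20 without the 100 most abundant. Over sequences with at least 2 reads it differed by 0.145, and with a library left out by -0.0171 to 0.0802. The other shares, lengths and ratios kept their sign under each alternative run, which a design that cannot reach 0.05 does not make a sign of stability. Counts of called members depended on the scale and filter. The settings compared first were library totals, upper quartile factors, a filter at 10 CPM in 3 libraries, no filter beyond 6 reads and thinning. They called 5261, 3499, 231, 9616 and 389 members, of 5362, 5362, 1770, 43108 and 2411 tested. Those were 98.1%, 65.3%, 13.1%, 22.3% and 16.1% of the members tested. Of all tested sequences, 98.1%, 64.9%, 23.7%, 29.3% and 26.8% were called. In the same order, 4911, 3092, 121, 6093 and 213 were higher in mature testis. That was 91.6%, 57.7%, 6.84%, 14.1% and 8.83% of the members tested, against 77.7%, 43.5%, 4.61%, 9.81% and 5.78% of all. The last 3 settings gave 110, 3523 and 176 higher in immature testis. Here the shares were 6.21%, 8.17% and 7.3%, against 19.1%, 19.5% and 21.1% of all. DESeq2 gave 1419 calls, 26.5% of the members tested, against 34.5% of all. Leaving out 1 library gave 1031 to 1997 calls, 420 to 1408 of them higher in mature and 526 to 611 higher in immature testis. Of the members tested, 11.6% to 23.1% were called, against 22.4% to 38.6% of all tested sequences. Those higher in mature testis were 4.73% to 15.9% of members, against 3.35% to 11.7% of all. For immature testis the shares were 6.66% to 11.2%, against 17.3% to 30.8% of all. With library totals and an immature library left out, 7745 to 7928 members were higher in mature testis, with 8839 to 8875 tested. That was 87.4% to 89.3% of the members tested, against 74.2% to 78.2% of all. With the replicate number as a block there were 595 calls, 190 higher in mature and 405 in immature testis. Of the members tested, 11.1% were called, 3.54% mature-high and 7.55% immature-high, against 23.5%, 2.18% and 21.4% of all. Same-numbered libraries did not deviate together (r of 0.0201, -0.0674 and 0.00741). With 3 libraries per group this cannot exclude a shared animal or batch, on which the labels are silent. Low counts limit what can be tested, since 71.5% of the members have 1 read and 1.09% could be tested.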
